A study of Mus musculus with 12 samples.

Results

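Mitochondrial ribosomal proteins were followed through heart RNA-seq of mice in which the glucocorticoid receptor gene Nr3c1 is deleted in cardiomyocytes. Every gene of the deposited table whose symbol begins with Mrpl or Mrps and a digit was taken, which gave 76 of 24918 genes. Of these, 47 carry Mrpl names (large subunit) and 29 carry Mrps names (small subunit), and all 76 passed the filter on low values that left 14721 genes to test. The rule used symbols only and no measured value, although the family was chosen with earlier results of these data known.

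Hearts of untreated C57BL/6 mice 2 months of age were sequenced in 12 libraries, 3 in each of 4 groups. All 4 groups carry floxed Nr3c1 alleles (GRloxP/loxP) on both chromosomes. The male and female cardioGRKO groups also carry Cre under the αMHC promoter, which acts in cardiomyocytes, and the male and female floxed groups do not. Deletion of the receptor and presence of Cre therefore cannot be told apart, and all 12 libraries have wild-type entered as their genotype. Nothing in the labels says that the libraries of a group came from separate animals, so p-values measure the spread between these libraries.

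The mitochondrial ribosome translates the few proteins coded by mitochondrial DNA, all of them subunits of the respiratory chain or of ATP synthase. Its RNAs are coded in the mitochondrion, while its proteins are coded in the nucleus, made in the cytosol and imported. Many of the proteins descend from those of bacterial ribosomes, others are found only in mitochondrial ribosomes, and inherited defects of several of them cause cardiomyopathy.

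Promoters of the members are shown for 4 genes, chosen because they are among the largest falls in males (Mrpl37 and Mrpl45), a change of opposite sign in the 2 sexes (Mrps18a), or the link to mitochondrial transcription (Mrpl12). The sequences are RefSeq promoters of build GRCm38.p6, written 5′ to 3′ on the gene's strand and ending before the first annotated exon base. Capitals mark a match to the site of the nuclear respiratory factor NRF1 (with any base allowed at the middle position of its half-site), or to CCGGAAG, the core of sites for the ETS factor GABP, on either strand.
Mrpl45 (chr11:97315596-97315715, plus strand): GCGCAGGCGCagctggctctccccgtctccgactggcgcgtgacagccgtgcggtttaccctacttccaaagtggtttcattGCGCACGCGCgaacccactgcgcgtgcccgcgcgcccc
Mrpl12 (chr11:120484517-120484612, plus strand): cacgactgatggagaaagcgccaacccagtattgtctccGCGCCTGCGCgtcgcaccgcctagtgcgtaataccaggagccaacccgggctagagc
Mrps18a (chr17:46110884-46110985, plus strand): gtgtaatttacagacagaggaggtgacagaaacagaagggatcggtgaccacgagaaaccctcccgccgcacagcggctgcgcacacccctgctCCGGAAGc
Mrpl37 (chr4:107066869-107066986, minus strand): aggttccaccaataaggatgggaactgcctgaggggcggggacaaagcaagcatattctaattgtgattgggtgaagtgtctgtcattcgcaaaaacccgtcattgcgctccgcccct
The Mrpl45 stretch holds a pair of NRF1-type matches, Mrpl12 holds 1, Mrps18a holds a GABP-type match, and the Mrpl37 stretch holds neither pattern.

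As a check of the labels, Nr3c1 (Entrez 14815) stood at 11.40, 11.42 and 11.42 log2 units in the male floxed libraries and at 10.83, 10.85 and 10.88 in the male cardioGRKO libraries. All 3 male knockouts lay below all 3 male controls, at 67.8% of the control level on the linear scale. The female groups gave 10.74, 10.71 and 10.78 where the label is floxed, and 10.90, 10.90 and 10.85 where it is cardioGRKO. The gene was thus higher, at 110% of control, in the libraries labelled as the female knockout, which goes against the labels (exact two-sided permutation p = 0.1 in each sex, the smallest that 3 against 3 libraries can give). Female groups are named as labelled throughout, and every female direction given here carries this doubt. Both female means (10.74 labelled floxed, 10.88 labelled cardioGRKO) lay near the male cardioGRKO mean (10.85) and below the male floxed mean (11.41). An exchange of the female labels would therefore leave neither female group at the male control level, and whether labels were exchanged was not tested.

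Other facts of the libraries bear on the members. Cardiomyocyte markers were present at high level in every group, with the summed level of 10 markers between 21.10 and 21.22 log2 units. Their sum was 21.19 to 21.22 in male floxed and 21.10 to 21.11 in male cardioGRKO libraries, and 7 of the 10 were called lower in the male knockout. All 10 endothelial markers were called lower there too (summed level 15.85 in each control against 15.67 to 15.69), and 7 of 8 fibroblast markers were called higher (15.92 to 15.94 against 16.07). Markers of atrial muscle rose in male knockouts (8 of 8 called, with sums of at most 15.02 in controls and of 17.12 to 17.13 in knockouts) and were lower in the libraries labelled female cardioGRKO (7 of 8 called, 16.77 to 16.81 against 15.74 to 15.76). In females, by label, the cardiomyocyte sum was 21.10 to 21.16 in floxed and 21.12 to 21.14 in cardioGRKO hearts, the endothelial sum 15.62 to 15.66 and 15.72 to 15.74, and the fibroblast sum 16.15 to 16.23 and 16.09. Adipocyte markers moved the way of the members in sum, at 14.58 to 14.62 in male floxed and 14.28 in male cardioGRKO libraries (2 of 7 tested called higher, 3 lower), and by label at 14.24 to 14.32 and 14.44 to 14.48 in females (6 called higher, 0 lower). B cell markers were called higher in males in 6 of 6 (9.03 to 9.09 against 9.48 to 9.49) and in females in 4 of 6. None of these markers was at 0 in all libraries. Libraries 1 and 2 labelled female floxed stood apart by corneal genes, with Krt12, a corneal keratin, at 13.13 and 13.98 log2 units against 8.35 in library 3. The part of these differences in the values of the members was not tested, and in whole-heart RNA fewer cells of a type and less RNA per cell cannot be told apart.

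Genes for the mitochondrial ribosome were mostly lower in male cardioGRKO hearts than in male floxed hearts. Of 76 members, 32 were called lower and 2 higher by limma at an adjusted p under 0.05, so 44.7% of the members were called against 27.4% of all genes tested. Among all genes the calls divided more evenly, with 14.6% lower and 12.8% higher. The median difference of the members was −0.057 log2 units, against −0.0021 for all genes tested. In 38 members every knockout library lay below every control (22% of all genes did so), and in 4 every knockout library lay above (19.4% of all genes). These shifts were small for single genes. The median size of a difference was 0.0641 log2 units over all members and 0.127 over the called ones, beside a median standard error of 0.0279. Called differences exceed their standard errors by the way they are picked.

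**Figure D1:**
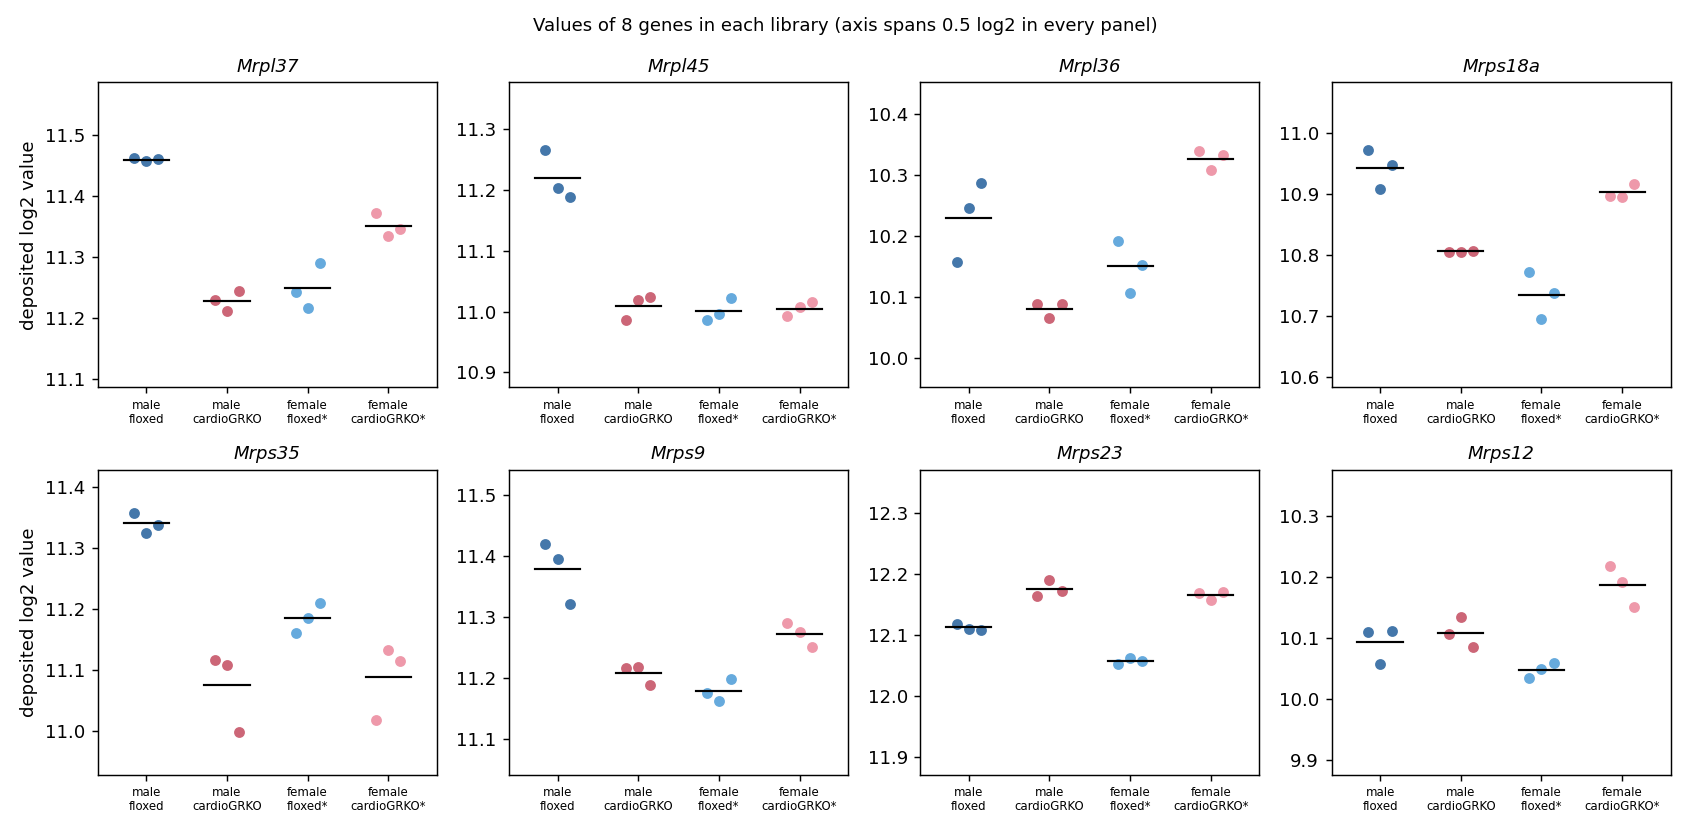
Deposited log2 values of 8 members, 1 panel per gene with an axis of equal span, with each library as a point and the group mean as a line; an asterisk marks the female groups, which are named as labelled. Male floxed libraries lie above male cardioGRKO libraries for Mrpl37, Mrpl45 and Mrps35, and below them for Mrps23.

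Among large-subunit genes, Mrpl37 (Entrez 56280), a protein found only in mitochondrial ribosomes, stood at 11.46 in all 3 male floxed libraries and at 11.23, 11.21 and 11.24 in male cardioGRKO. The groups were widely separated and each was tight, with an SD of 0.0024 among the controls. Mrpl37 fell to 85.2% of control (log2 difference −0.23, SE 0.022, adjusted p = 3.89e-07). Mrpl45 (Entrez 67036), which helps to hold the ribosome at the inner membrane, stood at 11.27, 11.20 and 11.19 in controls and at 10.99, 11.02 and 11.02 in knockouts. No knockout library reached the lowest control, and Mrpl45 fell to 86.5% of control (−0.21, SE 0.023, adjusted p = 2.68e-06). Mrpl42 (Entrez 67270), another protein found only in mitochondria, ran from 12.72 to 12.78 in controls and from 12.53 to 12.63 in knockouts. Its knockout libraries were also all lower, with a wider error (−0.19, SE 0.041, adjusted p = 0.00258).

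Several other large-subunit genes fell by smaller amounts. Mrpl50 (Entrez 28028) stood at 10.85, 10.86 and 10.94 in male controls and at 10.77, 10.75 and 10.69 in male knockouts (−0.15, SE 0.028, adjusted p = 0.000714). Mrpl36 (Entrez 94066), a very small protein with a bacterial relative, stood at 10.16, 10.25 and 10.29 against 10.09, 10.07 and 10.09. For both genes the groups did not overlap, and the Mrpl36 controls were spread more widely than its knockouts. Mrpl44 (Entrez 69163), a protein with an RNase III fold in which human mutations cause cardiomyopathy, fell by 0.13 (adjusted p = 0.000783). Mrpl12, a stalk protein that also binds the mitochondrial RNA polymerase, stood at 12.65, 12.62 and 12.59 in controls and at 12.51, 12.51 and 12.52 in knockouts. The knockouts were close together below the lowest control (−0.11, adjusted p = 0.000299). Mrpl28 fell by 0.13 (adjusted p = 0.000324), from 11.60 to 11.68 in controls to between 11.50 and 11.52 in knockouts.

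In the small subunit the largest fall was in Mrps35 (Entrez 232536). It stood at 11.36, 11.33 and 11.34 in male floxed and at 11.12, 11.11 and 11.00 in male cardioGRKO libraries. All 3 knockouts were lower, library 3 most of all, and Mrps35 fell to 83.2% of control (−0.27, SE 0.033, adjusted p = 8.72e-06). Mrps9 (Entrez 69527), a relative of a bacterial protein that contacts transfer RNA, stood at 11.42, 11.39 and 11.32 against 11.22, 11.22 and 11.19, again with no overlap (−0.17, SE 0.025, adjusted p = 4.82e-05). Mrps22, a disease gene in humans, fell by 0.13 (adjusted p = 0.00779). Mrps18a (Entrez 68565) and Mrps30 carry small-subunit names although their proteins sit in the large subunit. Mrps18a stood at 10.97, 10.91 and 10.95 in controls and at 10.81 in all 3 knockouts (−0.14, SE 0.024, adjusted p = 0.0003), and Mrps30 fell by 0.13 (adjusted p = 0.00708).

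The 2 members called higher in male knockouts both bear Mrps names. Mrps6 (Entrez 121022) stood at 9.76, 9.71 and 9.77 in male floxed and at 10.01, 10.01 and 9.93 in male cardioGRKO libraries. All knockouts were higher, and Mrps6 rose to 118% of control (0.23, SE 0.027, adjusted p = 3.85e-06). Mrps23 (Entrez 64656) moved less, from 12.12, 12.11 and 12.11 to 12.16, 12.19 and 12.17. It reached 104% of control (0.062, SE 0.017, adjusted p = 0.00935), the smallest difference of any called member in this comparison.

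Mrps6 shares its locus with Slc5a3, which codes for the sodium and myo-inositol cotransporter and was looked at after the Mrps6 values were seen. In GENCODE M21 (GRCm38) both lie on the plus strand of chromosome 16, Mrps6 from 92058270 to 92112227 and Slc5a3 from 92058322 to 92087473, and 159 exon bases belong to both. Slc5a3 stood at 7.80, 7.82 and 7.80 in male floxed and at 8.04, 8.08 and 8.06 in male cardioGRKO libraries. The transporter gene was higher in every knockout library, by 0.25 (SE 0.029, adjusted p = 2.98e-06), close in size to the rise of Mrps6. The part of reads from the shared bases in the Mrps6 value was not tested.

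**Figure D2:**
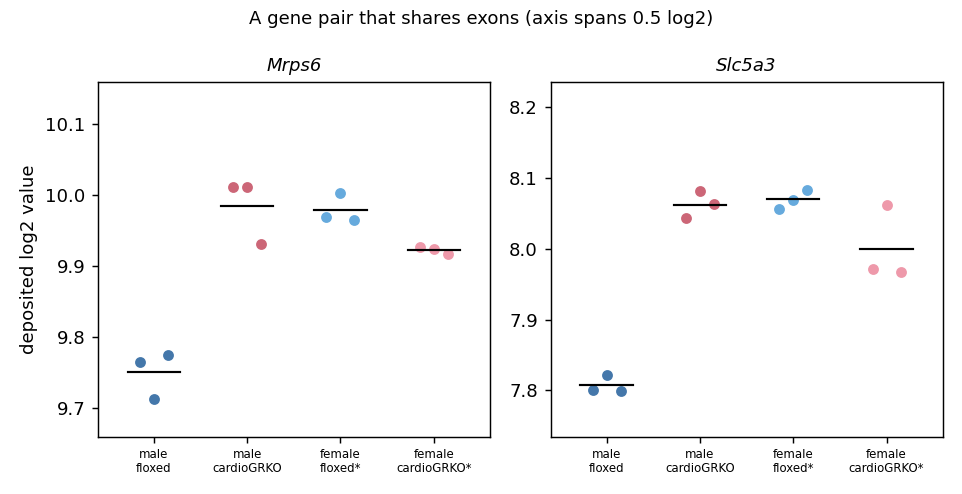
Log2 values of Mrps6 and Slc5a3 in each library by group, with points for libraries, lines for group means and an asterisk on the female groups, named as labelled. In both genes the male floxed libraries are the lowest of the 4 groups, at 9.71 to 9.77 for Mrps6 and 7.80 to 7.82 for Slc5a3.

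Of the other members, 42 were not called in males, 34 with a negative and 8 with a positive difference. They ran from −0.068 for Mrpl47 (adjusted p = 0.107) to 0.075 for Mrpl52 (adjusted p = 0.0563). Among them were Mrpl41 (−0.041, with a 95% confidence interval of −0.0871 to 0.00549), Mrps5 (−0.055, adjusted p = 0.19) and Mrps27, a protein with pentatricopeptide repeats (−0.014, adjusted p = 0.755). Mrps12, which sits at the decoding centre, stood at 10.11, 10.06 and 10.11 in controls and at 10.11, 10.13 and 10.08 in knockouts, with overlapping groups (adjusted p = 0.718). Mrps36, whose product belongs to the 2-oxoglutarate dehydrogenase complex rather than to the ribosome, was near 7.1 to 7.3 in all male libraries and its groups overlapped (0.022, adjusted p = 0.769).

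In males, in the large subunit 20 of 47 members were called lower and 0 higher (42.6% called), with a median difference of −0.061. The count of 0 depends on the setting, since Mrpl52 and Mrpl33, whose knockout libraries all lay above the controls (0.075 and 0.070, adjusted p = 0.0563 and 0.0645), were called higher after quantile normalization (0.0213 and 0.0242) and in the fit of males alone (0.04 and 0.038). Mrpl52 was also called with library weights (0.0403), and Mrpl33 with robust moderation (0.0355). In the small subunit 12 of 29 were lower and 2 higher (48.3% called), with a median of −0.055. Placing Mrps18a and Mrps30 with the large subunit, where their proteins sit, and leaving out Mrps36 gave 22 of 49 lower with a median of −0.066, and 10 of 26 lower with 2 higher and a median of −0.054. The mean level of the large-subunit genes was 10.64 ± 0.00121 (SD, n = 3) in male floxed and 10.57 ± 0.00393 in male cardioGRKO libraries, and that of the small-subunit genes 10.29 ± 0.00531 and 10.24 ± 0.00802. The large minus small difference within a library was 0.346 ± 0.0065 in controls and 0.339 ± 0.00739 in knockouts, so it moved by about the spread between libraries.

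**Figure D3:**
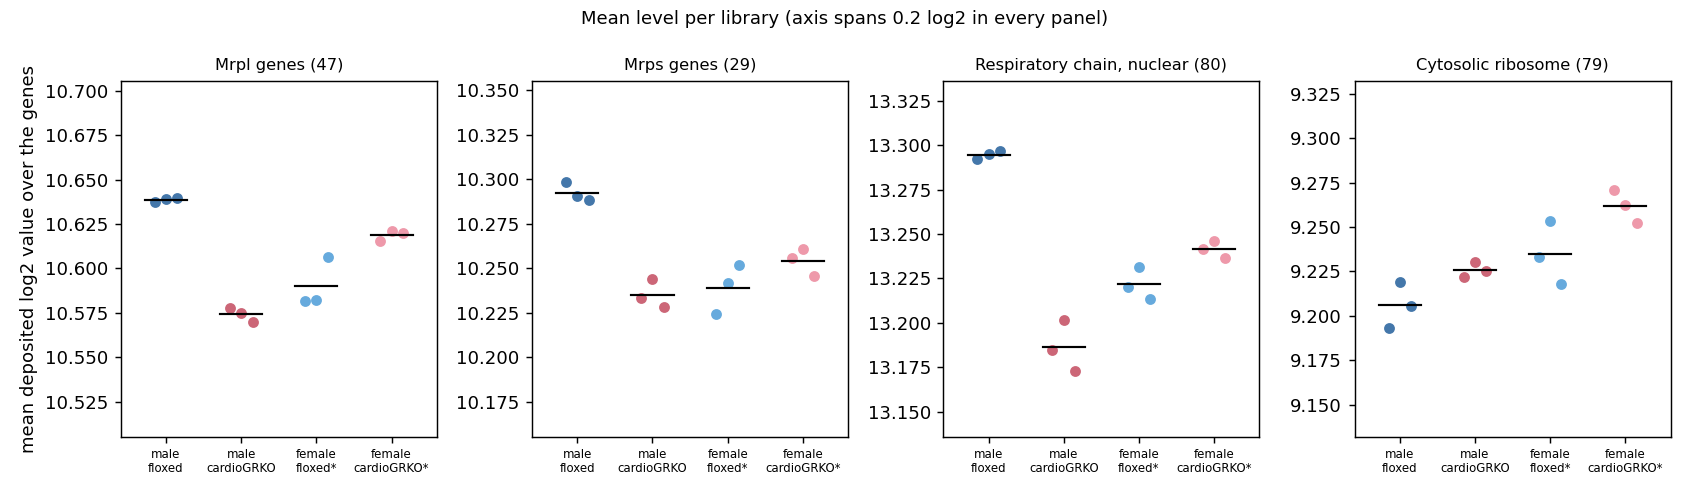
Mean log2 level in each library (points) by group (line, group mean) of the 47 Mrpl genes, the 29 Mrps genes, 80 respiratory chain subunits coded in the nucleus and 79 cytosolic ribosomal proteins; an asterisk marks female groups, named as labelled. Both subunits are lower in male cardioGRKO (10.57 and 10.24) than in male floxed libraries (10.64 and 10.29).

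Counts by the ancestry of the proteins were close. Among 48 members with a bacterial relative, 19 were called lower (39.6%) and 1 higher in males, with a median of −0.057. Among 27 members found only in mitochondrial ribosomes, 13 were lower (48.1%) and 1 higher, with a median of −0.059. Of all genes tested, 14.6% were called lower in males and 12.8% higher. The 17 members of the mitochondrial kind in the large subunit, among them Mrpl37, Mrpl42 and Mrpl45, had 9 lower and a median of −0.088. The 10 in the small subunit had 4 lower and 1 higher, with a median of −0.054. Of those with a bacterial relative, 11 of 30 in the large subunit were lower, with a median of −0.058. In the small subunit 8 of 18 were lower and 1 higher, with a median of −0.056. No test of the difference between these lists was made.

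In females the balance leaned the other way and fewer members were called. Comparing libraries labelled female cardioGRKO with those labelled female floxed, 11 members were called higher and 2 lower, 17.1% of the members against 29.3% of all genes tested (15.2% of all genes higher, 14% lower). The share called was thus below the background. The median difference was 0.021 log2 units for the members and −0.00037 for all genes, and 16 members lay wholly above their controls (21.6% of all genes did) and 7 wholly below (19.1%). Without libraries 1 and 2 labelled female floxed, which leaves 1 library in that group and assumes that it varies like the others, 7 members were called higher and 1 lower (10.5%, against 18.6% of all genes), and the median was 0.0036.

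Mrpl36 rose most in females, from 10.19, 10.11 and 10.15 in the libraries labelled floxed to 10.34, 10.31 and 10.33 in those labelled cardioGRKO. The groups were well apart, at 113% of control (0.18, adjusted p = 0.000406). Mrps18a stood at 10.77, 10.69 and 10.74 against 10.90, 10.90 and 10.92, which is 112% of control (0.17, adjusted p = 5.16e-05). Both genes had fallen in males. Mrps12 stood at 10.03, 10.05 and 10.06 against 10.22, 10.19 and 10.15 (0.14, adjusted p = 0.000574), and Mrpl3, which lies near the peptidyl transferase centre, at 11.31, 11.36 and 11.32 against 11.48, 11.44 and 11.40 (0.11, adjusted p = 0.00207). For these 2 genes the female groups were separate and the male groups overlapped. Mrps23 rose in females as in males, from 12.05, 12.06 and 12.06 to 12.17, 12.16 and 12.17 (0.11, adjusted p = 0.000127).

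Another 5 named members lost their female call when libraries 1 and 2 labelled female floxed were both left out. Mrpl37 stood at 11.24, 11.22 and 11.29 against 11.37, 11.33 and 11.35 (0.10, adjusted p = 0.00233), and the adjusted p was 0.216 without libraries 1 and 2 labelled female floxed. Mrps9 rose by 0.093 (adjusted p = 0.00944, and 0.168 without them), Mrpl44 by 0.085 (0.0173 and 0.229) and Mrpl34 by 0.097 (0.0264 and 0.0945). Mrps10 stood 0.13 lower (0.0209 and 0.101). Single libraries also decided some of these calls. The Mrpl44 call was lost without library 1 labelled female floxed (adjusted p = 0.0867) or library 3 labelled cardioGRKO (0.0698). The Mrps10 call was lost without floxed library 1 (0.0617) or without cardioGRKO library 1 or 3 (0.0522 and 0.115). The Mrpl34 call was lost without floxed library 1 (0.0708) or without cardioGRKO library 2 or 3 (0.118 and 0.0527).

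As labelled, Mrps35 was the 1 member called lower in both sexes. With the female labels exchanged it would be lower in males and higher in females, and the members lower in both would be the 6 that are lower in males and higher in females as labelled. By label, the female floxed libraries stood at 11.16, 11.18 and 11.21 and the female cardioGRKO libraries at 11.02, 11.13 and 11.11, a difference of −0.097 with an adjusted p of 0.035. This female call was lost without cardioGRKO library 1 (adjusted p = 0.173), floxed library 2 (0.0585) or floxed library 3 (0.0681), and with library weights (0.0673) or no filter on low values (0.0612). Mrpl45, which fell clearly in males, stood between 10.99 and 11.02 in all 6 female libraries (0.0035, adjusted p = 0.932). Mrps33 had the widest spread of any member (pooled SD 0.116), since library 3 labelled female cardioGRKO stood at 8.86 beside 9.23 and 9.25.

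By subunit, of the large-subunit genes 7 of 47 were called higher (14.9%) and 0 lower, with a median of 0.020. Of the small-subunit genes 4 of 29 were higher (13.8%) and 2 lower (6.9%), with a median of 0.026. Among all genes tested 15.2% were called higher and 14% lower. The shares called higher were thus close to the background, and those called lower were below it. The mean level of the large-subunit genes was 10.59 ± 0.0141 (SD, n = 3) in libraries labelled floxed, with library 3 above the other two, and 10.62 ± 0.00295 in those labelled cardioGRKO, and the large minus small difference was 0.351 ± 0.00903 and 0.365 ± 0.00843. All 3 cardioGRKO libraries lay above all 3 floxed libraries in that difference (0.3594, 0.3598 and 0.3742 against 0.3578, 0.3408 and 0.3546), by little for the nearest pair, and it was not tested. By the placement of the proteins, 8 of 49 large-subunit members were higher (16.3%), and 3 of 26 small-subunit members were higher (11.5%) and 2 lower (7.69%). Without libraries 1 and 2 labelled female floxed, the median was −0.0069 for members with large-subunit names and 0.0066 for those with small-subunit names.

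The genotype difference depended on the labelled sex for many members. In the test of that difference (male change minus female change), 30 members were called, 29 of them with the lower value in males, which is 39.5% against 31.3% of all genes (17% of all genes in the lower direction, 14.3% in the higher). The median was −0.081 for the members and −0.0019 for all genes. Of the 29, 25 had a negative difference in males and a positive one in females. The 6 members called lower in males and higher in females were Mrpl28, Mrpl36, Mrpl37, Mrpl44, Mrps9 and Mrps18a. By subunit, 18 of 47 large-subunit and 11 of 29 small-subunit members were called in that direction, with medians of −0.082 and −0.080. Without libraries 1 and 2 labelled female floxed, the median was −0.067 for the members and −0.0027 for all genes. With quantile normalization 23 of 76 members were called in either direction, about the share of all genes (30.6%).

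As labelled, Mrpl37 showed the widest contrast, with a male minus female difference of −0.333 (SE 0.031, adjusted p = 2.95e-07). Mrpl36 followed at −0.325 (adjusted p = 1.99e-05) and Mrps18a at −0.305 (adjusted p = 2.22e-06). Mrps6 was the 1 member called the other way, since it rose in males and by label had a mean of 9.98 ± 0.0207 (SD, n = 3) in female floxed and 9.92 ± 0.00547 in female cardioGRKO hearts (male minus female 0.29, SE 0.038, adjusted p = 1.59e-05). For Mrps23, which rose in both, the difference between the sexes was −0.046 with a 95% confidence interval of −0.0957 to 0.00393 (adjusted p = 0.153). Across the 76 members the male and female differences had a Pearson r of −0.145, and across all genes −0.198. This is a description over genes that share the same 12 libraries.

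These sex differences turn on the female labels, which Nr3c1 goes against. With the 2 female labels exchanged, an alternative added after the data were seen, 15 members were called in the difference between the sexes, 12 lower and 3 higher in males (19.7%, against 24.6% of all genes), with a median of −0.038. Mrps35 then had the widest contrast (−0.363, adjusted p = 2.19e-05), and Mrpl45 followed (−0.206, adjusted p = 0.000209). Mrpl37 stood at −0.131 (adjusted p = 0.00471), Mrps9 at −0.0782 (adjusted p = 0.117) and Mrpl28 at −0.0335 (adjusted p = 0.499). Mrpl36 (0.0271, adjusted p = 0.697) and Mrps18a (0.0314, adjusted p = 0.541) were close to 0 and of the other sign. Mrps6 kept its sign (0.178, adjusted p = 0.00241). The male comparison does not use these labels.

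**Figure D4:**
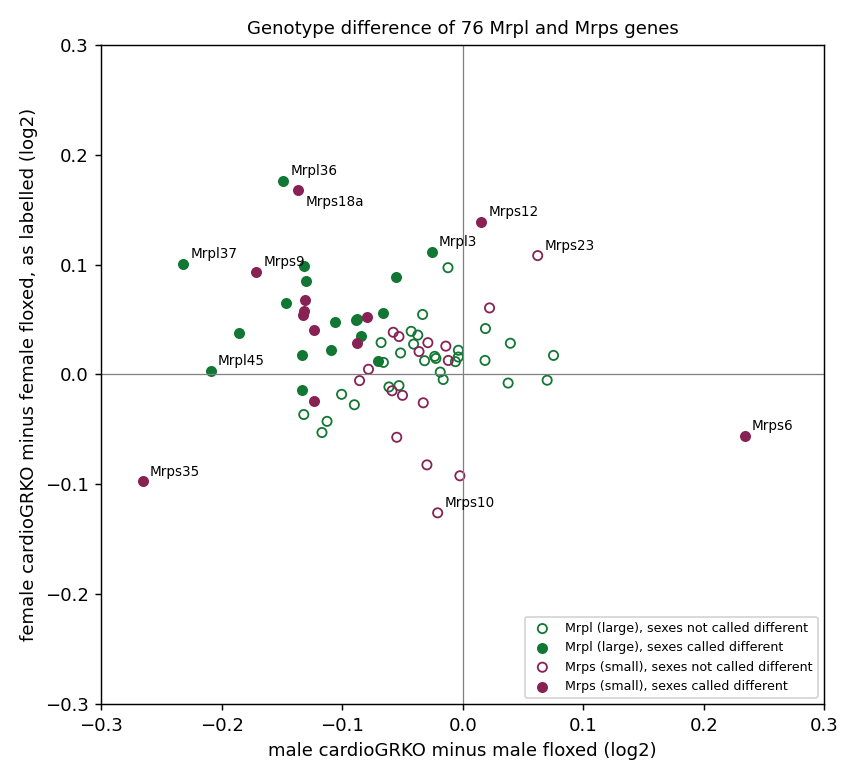
Genotype difference (log2, cardioGRKO minus floxed) in males on the x axis and in females, as labelled, on the y axis, 1 point per member in 1 colour per subunit, filled where limma called the difference between the sexes. Most points lie left of 0 in males, Mrps35 is low in both, and Mrps6 stands apart at 0.23 in males.

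Levels in the 4 groups can be set side by side, keeping in mind that comparisons of the sexes share their libraries with the genotype comparisons above and are not independent of them. The group mean was highest in male floxed hearts for 41 of 76 members, in the group labelled female cardioGRKO for 24, in that labelled female floxed for 8 and in male cardioGRKO for 3. It was lowest in male cardioGRKO for 34 and in the group labelled female floxed for 26. Between the floxed groups, female minus male, 30 members were called lower and 3 higher (43.4%, against 44.2% of all genes, of which 22.7% were lower and 21.5% higher), with a median of −0.044 against 0.0031. Mrpl50 (−0.23), Mrpl45 (−0.22), Mrpl37 and Mrps18a (both −0.21) were furthest below the male controls, with adjusted p-values between 7.31e-07 and 5.13e-06. Mrps6 (0.23, adjusted p = 3.26e-06), Mrpl52 (0.13, adjusted p = 0.00152) and Mrpl33 (0.11, adjusted p = 0.00389) were above them. After quantile normalization the division was 19 lower and 6 higher. These 25 of 76 members were a smaller share than the 42.8% of all genes called in that setting.

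Between the knockout groups, female minus male, 18 members were called higher and 0 lower (23.7%, against 24.2% of all genes), with a median of 0.031 against 0.0012. Of all genes, limma called 12.4% lower and 11.9% higher in this comparison, and at an adjusted p under 0.05 no member was among the lower ones. Mrpl36 (0.25, adjusted p = 1.96e-05), Mrpl39 (0.16, adjusted p = 0.000294), Mrpl37 (0.12, adjusted p = 0.000561) and Mrpl14 (0.12, adjusted p = 0.0102) differed most. The Mrpl14 call was lost without male cardioGRKO library 1 (adjusted p = 0.0527). In the main fit of both comparisons of the sexes the share of members called was close to that of all genes, while the calls of the members lay mostly in 1 direction.

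Genes that act with the mitochondrial ribosome were taken as lists of the pathway, to be read against the 27.4% of all genes called in males and 29.3% in females. By direction, 14.6% of all genes were called lower in males and 15.2% higher in females. Of 7 mitoribosomal proteins with other names, 4 were called lower in males (57.1%), with a median of −0.088, and 2 higher in females (28.6%). Among them was Dap3, a GTP-binding small-subunit protein (−0.16, adjusted p = 1.7e-05), which was 0.074 higher in females (adjusted p = 0.0133). Of 17 mitochondrial translation factors, 7 were lower and 0 higher in males (41.2% called). In females 5 were higher and 0 lower (29.4%, against 15.2% of all genes called higher). They include the recycling factor Mrrf (male −0.13, adjusted p = 0.000889) and Taco1, an activator of cytochrome oxidase translation (female 0.18, adjusted p = 0.0015). Of 22 mitochondrial tRNA synthetases and related enzymes, 9 were lower and 0 higher in males (40.9%), such as Fars2 (−0.18, adjusted p = 8.41e-05), and 2 were higher in females (9.09%, under the level of all genes).

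Of 29 genes of assembly and rRNA modification, 8 were called lower and 0 higher in males (27.6%), and 7 higher and 2 lower in females (31.0%). Both shares were near those of all genes called in either direction. By direction, 27.6% were lower in males against 14.6% of all genes, and 24.1% were higher in females against 15.2%. Among those called in both was Spg7, a subunit of the protease that matures Mrpl32 (male −0.10, adjusted p = 0.00336, female 0.13, adjusted p = 0.000466). Mitochondrial DNA and RNA upkeep showed 6 of 17 genes lower in males (35.3%) and 2 higher in females (11.8%), led in males by the DNA polymerase Polg (−0.17, adjusted p = 8.04e-06). Of 16 regulators of nuclear genes for mitochondria, 5 were lower and 1 higher in males (37.5%), and 4 higher and 2 lower in females (37.5%). The coactivator Ppargc1a was lower in males (−0.082, adjusted p = 0.00987) and in females (−0.19, adjusted p = 5.43e-06), while the orphan receptor Esrrb was lower in males (−0.23, adjusted p = 9.61e-05) and higher in females (0.25, adjusted p = 6.42e-05).

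The proteins coded by mitochondrial DNA join subunits coded in the nucleus. Of 80 tested respiratory chain subunits coded in the nucleus, 54 were called lower and 1 higher in males, with a median of −0.112 (68.8% called), and 17 were higher and 4 lower in females (26.2%). Cox7a1, the heart and muscle form of a cytochrome oxidase subunit, fell by 0.30 in males (adjusted p = 5.91e-10). Proteins of the cytosolic ribosome had few calls. Of 79 tested, 6 were called higher and 2 lower in males, with a median of 0.0071 (10.1% called), and 13 were higher and 3 lower in females (20.3%). Their mean level was 9.21 ± 0.0129 (SD, n = 3) in male floxed and 9.23 ± 0.00421 in male cardioGRKO libraries. Whether the members differ from either list was not tested. Without libraries 1 and 2 labelled female floxed, the female median was 0.0245 for respiratory chain subunits and 0.0434 for cytosolic ribosomal proteins. It was 0.00046 for translation factors, 0.042 for assembly and 0.00069 for all genes tested. With all libraries these medians were 0.0145, 0.0287, 0.0169, 0.0258 and −0.00037.

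**Figure D5:**
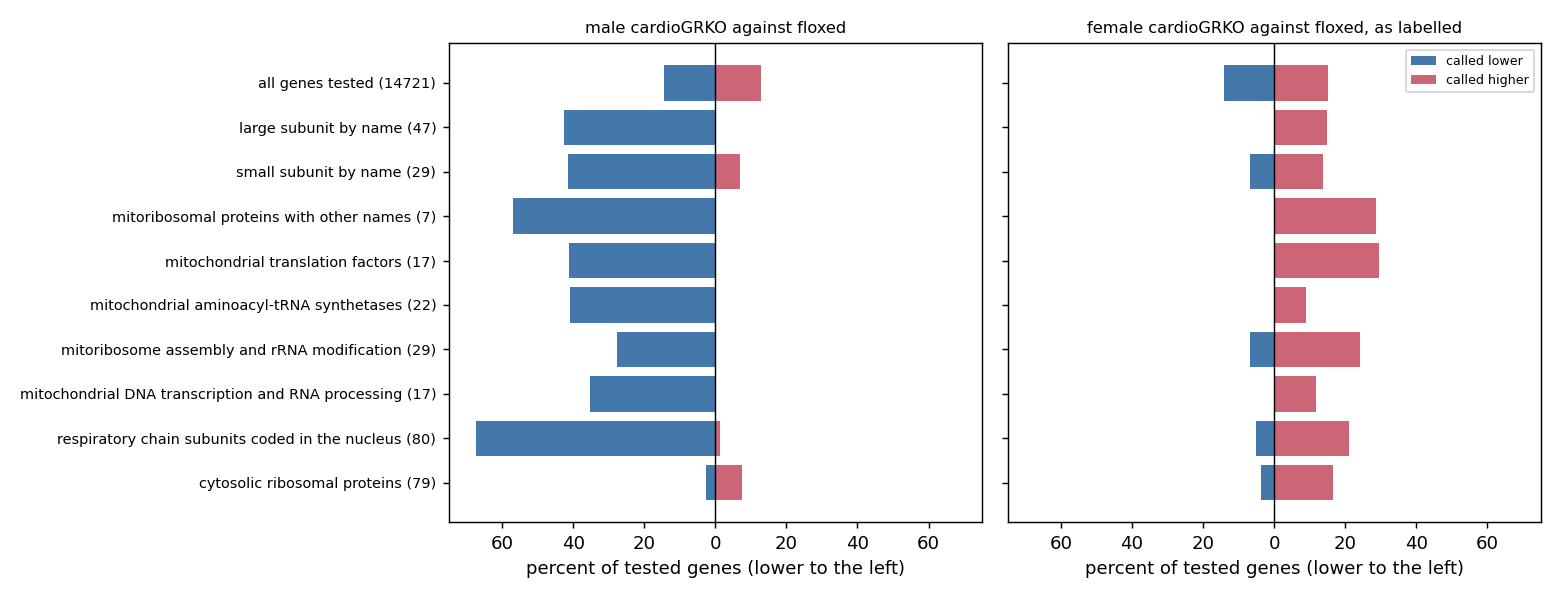
Percentage of the tested genes of each list (x axis, number tested in brackets) that limma called lower (bars to the left) or higher (to the right) at an adjusted p under 0.05, in males and in females as labelled. In males the bars of the mitochondrial lists extend to the left, with 54 of 80 respiratory chain subunits, 20 of 47 Mrpl genes and 12 of 29 Mrps genes lower, while cytosolic ribosomal proteins have 2 of 79 lower.

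Promoter sequence was compared with the male calls as a description. The RefSeq table held 73 promoters for 67 of the 76 members, each of 250 bases before and 50 after the start, with a median GC content of 58.3%, against 60.3% over promoters of the genes tested. A match to the NRF1 site on either strand, with any middle base, was found in 12 of 73 (16.4%), in 4.6% of all 32851 promoters and in 8.84% of the 14680 promoters of tested genes. It lay in 9 of 31 promoters of members called lower in males and in 3 of 40 of members not called. The strict form of the site, a subset of those matches, was found in 3 of 73 (4.11%, against 1.81% for tested genes). CCGGAAG was found in 24 of 73 (32.9%, against 15.7% for tested genes), in 6 of 31 promoters of members called lower (19.4%) and in 17 of 40 of members not called (42.5%).

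AAGATGGC, the core of sites for YY1, was found in 12 of 73 member promoters (16.4%, against 3.94% for tested genes and 2.75% for all). CACGTG, the E-box, was found in 7 (9.59%, against 9.65%). TCAAGGTCA, the site of estrogen-related receptors, was found in 0 of 73 (0.266% of promoters of tested genes). AGAACA, the half-site of the glucocorticoid receptor, was found in 10 (13.7%, against 12.8%), and the full palindrome of that receptor, a pair of half-sites facing each other across 3 free bases, in 0 (0.00681% of promoters of tested genes). Of all members 42.1% were called lower in males, against 14.6% of all genes tested, and their median was −0.057. Members with the NRF1-type match had a median male difference of −0.099, with 9 of 12 called lower. Those with the GABP-type match had a median of −0.024, with 6 of 24 called lower and 1 higher. Those with the YY1-type match had a median of −0.059, with 5 of 12 called lower. In promoters of members called lower and of members not called, AAGATGGC was found in 16.1% and 17.5%. The shares were 16.1% and 5.0% for CACGTG, and 16.1% and 12.5% for AGAACA. Whether a match goes with a male call was not tested. CCGGAAG and AAGATGGC can overlap by their last and first letters, and a match is not a bound site.

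Counting could mix some members with neighbours. In GENCODE M21, 16 of the 76 genes share over 10% of their exon bases with another gene and 3 share over 50%, namely Mrpl53 (100%), Mrps18b (59.1%) and Mrps25 (58.2%, with Nr2c2 on the opposite strand). For Mrpl12 the share was 15.2%, for Mrps27 22.6%, for Mrps30 18.1% and for Mrpl33 22.4%, while Mrps6 reached 36.1%. Reads from opposite strands could not be separated if counting ignored strand. Mrpl53, Mrpl33, Mrps6, Mrps18c (18.5%) and Mrpl51 (2.54%) share exon bases with a gene on the same strand, which strand would not separate. For Mrps6 these are Gm49711 and Slc5a3. The values of all these members are therefore uncertain. Named pseudogenes exist for 3 members (Mrpl23, Mrpl48 and Mrps36), none of which was called in either sex. The spread between libraries was ordinary, with a median pooled SD of 0.0353 over the members and 0.0345 over 6207 tested genes of like level.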

How the data were processed

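RNA was taken from whole hearts and sequenced in 12 libraries, with TruSeq v2 kits and a NextSeq500 per the labels' protocols. Per the submitters' processing notes, the authors trimmed reads with Trim Galore, aligned them with TopHat2 to mm9, counted them with HTSeq and normalized with DESeq2, with versions and count settings not given in the sources used here. The deposited values are on the log2 scale. They reach −2.20, and 4895 genes are listed at 0 in every library, so reads and depth could not be recovered and differences of weakly expressed genes may be shrunken by the authors' transformation. The spread between libraries is the precision given.

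Genes at log2 of 10 or more in at least 3 libraries were tested, 14721 in all. One limma model (limma 3.58.1, R 4.3.3, moderation with an intensity trend) held 1 mean per group over 12 libraries, with 8 residual degrees of freedom. Two-sided p-values were adjusted by Benjamini-Hochberg across the 14721 genes, and a gene was called under 0.05. Confidence intervals are for 1 gene at 95%, with no adjustment. A marker sum is the log2 of summed linear values. All columns of the table were used.

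Members and lists were chosen with earlier results of these data known. Named members are the 8 largest rises and falls with separate groups in each genotype comparison, the 5 largest in each direction of the difference between sexes, the 4 largest in each comparison of sexes, and 12 of known role. Genes of other lists come from the 3 smallest p in each sex. Promoters and gene models are of GRCm38, whose coordinates were not joined to those of mm9. The alternatives tried were other filters, quantile normalization, median centring, moderation without trend or robust, library weights, a replicate block, fits within 1 sex, each library left out in turn, 2 unusual libraries left out, subunits assigned by structure and, added after the data were seen, the female labels exchanged.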

Additional observations from a re-analysis of the deposited data

Results flagged for a closer look

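The genotype difference itself differed between the labelled sexes in the limma test of the interaction for 30 members (39.5%, against 31.3% of all genes tested). For Mrps6 the male difference exceeded the female one by 0.29 log2 units. For Mrpl37 the male minus female value was −0.333, for Mrpl36 −0.325, for Mrps18a −0.305, for Mrps9 −0.265 and for Mrpl28 −0.231, each with a fall in males and a rise in the libraries labelled female cardioGRKO. Without libraries 1 and 2 labelled female floxed, the female rise was smaller, at 0.061 for Mrpl37 and 0.073 for Mrps9. The female sign rests on labels that the level of Nr3c1 goes against. With these labels exchanged, the values were −0.131 for Mrpl37, 0.0271 for Mrpl36, 0.0314 for Mrps18a, −0.0782 for Mrps9, −0.0335 for Mrpl28 and 0.178 for Mrps6. After that exchange 15 members were called (19.7%, against 24.6% of all genes tested), a share below the background. With the labels as given and quantile normalization, 23 members were called, about the share of all genes tested (30.6%).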

How the results depend on the processing

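The count of 34 members called in males stayed between 31 and 37 under the other normalizations, filters, moderation choices and within-sex fit, and between 29 and 35 when 1 library was left out. The count of 13 in females stayed between 12 and 14 under those settings and between 10 and 16 with 1 library left out, and it moved to 8 without libraries 1 and 2 labelled female floxed, all 8 of them among the 13. The count of 30 for the difference between the sexes ran from 23 to 34 with the labels as given. That of 33 between the floxed groups ran from 25 to 35, and that of 18 between the knockout groups from 12 to 23. These ranges leave out the fit without libraries 1 and 2 labelled female floxed. With quantile normalization these counts were 23, 25 and 15, beside 30.6%, 42.8% and 23.6% of all genes called. The share of members was then about that of all genes for the difference between the sexes. It was below that of all genes between the floxed and between the knockout groups. The median of the large minus that of the small subunit was −0.0065 in males, 0.0017 after quantile normalization, and between −0.0129 and 0.0036 with 1 library left out. In females it was −0.0062, 0.0052 with subunits assigned by structure, and between −0.0064 and 0.0129 with 1 library left out, so its sign is not fixed by these data. With a replicate block 35 members were called in males, 12 in females and 29 in the difference between the sexes, and Mrpl52 was called higher in males (adjusted p = 0.0421). Correlations of same-numbered libraries ran from −0.11 to 0.148, and those of differently numbered libraries from −0.222 to 0.24. The numbers thus gave no sign of pairing, but 3 libraries per group are too few to exclude it. Among single members, the male call of Mrpl14 was lost without floxed library 3 (adjusted p = 0.0522) or cardioGRKO library 1 (0.0524), and that of Mrpl39 without floxed library 1 (0.0576) or cardioGRKO library 1 (0.0607), or with quantile normalization (0.0506). With no depth in the values, differences under about 0.06 log2 units were not called for any member in males. With the female labels exchanged, the count for the difference between the sexes moved to 15 (19.7%, against 24.6% of all genes tested). The sign turned for members including Mrpl3 (0.086), Mrpl36 (0.0271), Mrps12 (0.154), Mrps18a (0.0314) and Mrps23 (0.17).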
